A study of Mus musculus with 10 samples.

Results

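Cecr2 and 9 subunits of the ISWI family of chromatin remodelling complexes were followed across 10 expression arrays of mouse splenic B cells. The 10 genes (Cecr2, Smarca1, Smarca5, Bptf, Baz1a, Baz1b, Baz2a, Baz2b, Rsf1 and Chrac1) were 10 of the 19937 genes measured, and each was represented by a probe set that carried its symbol alone. Cecr2 was selected on measured values, as a large fall against wild-type in both transgenic groups, so its differences from wild-type are given as a description with no test. The other 9 genes were added because their products belong to ISWI complexes, not for their values.

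The cells were B220+CD22+ cells sorted from spleens of CBAxC57BL/6J mice, and total RNA was hybridised to Affymetrix Mouse Gene 1.0 ST arrays. The groups were 3 wild-type arrays, 3 arrays from Sca1-Bcl6(floxed) mice (called floxed here) and 4 from Sca1-Bcl6(delta) mice (called delta here). Floxed mice carried an intact transgene, in which a vector built on the Ly6a (Sca1) locus drives loxP-flanked mouse Bcl6 with an eGFP reporter. Delta mice carried the same transgene together with mb1-Cre, a recombinase driven in B lineage cells from the Cd79a (mb1) locus, and neither the wild-type nor the floxed group was described as carrying Cre. The comparisons address what the presence of the transgene, and its removal in B lineage cells, leaves in the RNA of mature B cells. Delta was the only group described as carrying Cre, so in its comparisons transgene removal and mb1-Cre itself cannot be told apart. The labels give no age or sex, do not say which of the transgenic lines each array came from, and do not tie arrays to single animals, so p-values measure only the spread between these samples.

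ISWI remodelling enzymes are motors that use ATP to slide nucleosomes along DNA and to set their spacing. The catalytic subunit is SNF2H, encoded by Smarca5, or SNF2L, encoded by Smarca1, and the partner bound to it gives each complex its name and its targets. CECR2 is a bromodomain protein, which reads acetylated lysines, and it joins an ISWI motor in the complex called CERF; in the mouse it is known for closure of the neural tube and for male fertility.

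Over the whole series, the median RMA intensity of an array lay between 139 and 145, and levels below are log2 of that intensity. The B cell marker list (7 of 8 genes measured, among them Cd79a, Ms4a1 and Pax5) had a mean level of 12.80 to 13.03 in every array, in keeping with the sort. The sex of the mice, read from Xist against Y-linked Eif2s3y, Kdm5d and Uty, was of female pattern in 6 arrays and of male pattern in 4, namely 0 of 3 wild-type, 3 of 3 floxed and 1 of 4 delta arrays (delta 1). Sex pattern and genotype therefore cannot be told apart in floxed against wild-type, except through delta 1. Lists of markers of other cells also had higher means in the floxed group. The T cell list (11 of 12 measured) averaged 6.20 to 6.46 in wild-type, 6.39 to 7.04 in floxed and 6.22 to 6.61 in delta arrays. The erythroid list (6 of 9 measured) averaged 6.98 to 7.32, 7.54 to 8.01 and 6.82 to 7.48 in the same order, the NK cell list (9 of 9) 5.93 to 6.07, 6.20 to 6.65 and 5.88 to 6.32, and the myeloid list (9 of 9) 6.56 to 6.59, 6.80 to 7.28 and 6.68 to 7.20. The plasma cell list (5 of 5) averaged 8.47 to 8.67, 8.87 to 8.89 and 8.61 to 8.74. Among all marker genes, those past the threshold in limma were Jchain, the joining chain of secreted antibody (1.64, adjusted p = 0.00383), and Sdc1, the plasma cell surface proteoglycan (-0.51, adjusted p = 0.0451), in floxed, and Cd79a (-0.48, adjusted p = 0.0427) in delta, each against wild-type. Cd79a is also the locus from which mb1-Cre is driven in delta mice, and the cause of its difference was not tested. For Bcl6 itself, wild-type arrays averaged 10.05 ± 0.38 (SD, n = 3), floxed arrays 9.88 ± 0.08 (SD, n = 3) and delta arrays 9.70 ± 0.14 (SD, n = 4), with no difference past the adjusted threshold (limma, adjusted p = 0.688 in floxed and 0.578 in delta against wild-type).

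Cecr2 RNA was high in wild-type B cells, lowest in floxed and between them in delta. Its probe set (10541260) read 9.79, 9.87 and 9.67 in wild-type 1, 2 and 3. In floxed 1, 2 and 3 it read 7.34, 7.93 and 7.73, so that the highest floxed array lay below the lowest wild-type array by more than the whole spread of either group. In delta 1, 2, 3 and 4 it read 9.03, 8.45, 8.07 and 8.22, and these 4 arrays lay below all wild-type and above all floxed arrays. In RMA intensity the mean of the wild-type arrays was 878 ± 61.6 (SD, n = 3), that of the floxed arrays 206 ± 41.4 (SD, n = 3) and that of the delta arrays 360 ± 113 (SD, n = 4). The log2 difference was -2.11 (SE 0.21), or 4.31-fold lower, in floxed against wild-type and -1.33 (SE 0.20), or 2.52-fold lower, in delta against wild-type. The SE of Cecr2, here and below, come from limma fits and do not allow for its choice on the same values. Both of these comparisons used the same wild-type arrays. In sorted cell populations a smaller number of Cecr2-expressing cells and less Cecr2 RNA per cell cannot be told apart.

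**Figure D1:**
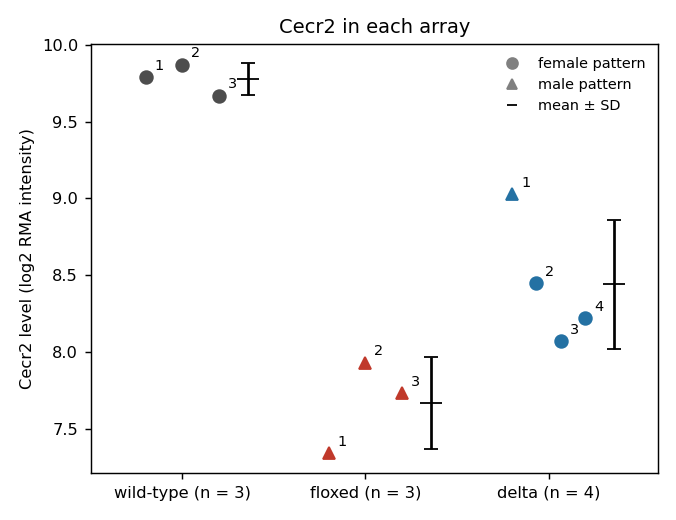
Level of Cecr2 (vertical axis, log2 of RMA intensity) in each array of the 3 groups, with the replicate number beside each point, circles for arrays of female and triangles for arrays of male pattern, and the group mean ± SD as a bar. Floxed arrays sit at 7.34 to 7.93, delta arrays at 8.07 to 9.03 and wild-type arrays at 9.67 to 9.87, with no overlap between groups.

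The choice of Cecr2 left close neighbours on either side. Cecr2 had the largest fall among the 32 genes that limma called lower in floxed and the 9 in delta, each against wild-type. Both comparisons called 7 genes lower. That rank describes the choice and is not a test of Cecr2. Under some alternatives given in the closing section, no gene was called in delta against wild-type, so Cecr2 was not called there. Ranked by the lesser of both falls with no regard to spread, Cecr2 (-1.33) stood at place 4, behind St3gal5 (-2.01), Xist (-1.67) and Zfp979 (-1.40), none of which passed the adjusted threshold. The values just past Cecr2 were -1.30 for Cd93, -1.07 for Dhrs3 and -1.03 for Slc15a2.

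The choice did not rank genes by delta against floxed, but it used the same arrays, so the values of Cecr2 here are not independent of it. Cecr2 was 0.77 higher in delta on the log2 scale (SE 0.20, 95% CI 0.33 to 1.21), a 1.71-fold difference, and all 4 delta arrays lay above all 3 floxed arrays. It did not pass in limma after Benjamini-Hochberg adjustment over all genes (adjusted p = 0.624). Of all genes, 0.00502% passed the adjusted threshold of 0.05 in this contrast, and 6.96% had groups that did not overlap. The order of Cecr2 levels was therefore floxed, delta, wild-type from low to high, with the step between floxed and delta not past the adjusted threshold.

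Delta 1, the delta array of male pattern, had the highest Cecr2 level of its group, 0.78 above the mean of the other delta arrays. All floxed arrays are of male pattern, and their levels were the lowest. No wild-type array is of male pattern, so sex pattern cannot be told apart from any other trait of delta 1. Within arrays of female pattern, the 3 other delta arrays differed from wild-type by -1.53 on the log2 scale. Within arrays of male pattern, delta 1 lay 1.36 above the floxed mean, a difference that rests on 1 delta array. With sex pattern as a covariate, the difference of Cecr2 in floxed against wild-type was -2.89 in place of -2.11, and that between delta and floxed became 1.36. Only the delta group held both patterns, so the covariate is set by delta 1 against the other delta arrays. Both values therefore restate the level of that 1 array and add no separate evidence.

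The mean of the T cell list was higher in the floxed group as well, but unevenly. T cell means were 7.04, 6.39 and 6.85 in floxed 1, 2 and 3, where Cecr2 read 7.34, 7.93 and 7.73. The array with the lowest T cell mean thus had the highest Cecr2 level of the group. Floxed 2 lay inside the wild-type range of the T cell list. It lay above every wild-type array on the NK cell (6.20), myeloid (6.88) and erythroid (7.80) lists. With the mean of the T cell list as covariate, Cecr2 differed by -1.80 (SE 0.25) in floxed against wild-type, by -1.35 (SE 0.18) in delta against wild-type and by 0.45 (SE 0.24, adjusted p = 0.880) in delta against floxed. Erythroid, NK cell, myeloid and plasma cell lists, whose ranges are given above, were also higher in floxed arrays than in wild-type arrays, on average, and their part in the Cecr2 difference was not tested.

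Of the remaining 9 genes, none passed the adjusted threshold in any of the 3 comparisons, with adjusted p of 0.413 to 0.989 in floxed against wild-type, 0.586 to 0.990 in delta against wild-type and 0.736 to 0.996 in delta against floxed by limma. In floxed against wild-type 0 of these 9 were called, where 0.552% of all genes were, and 0 had an unadjusted p under 0.05, where 12.78% of all genes did. In delta against wild-type 0 of 9 were called, where 0.0752% of all genes were, and 2 had an unadjusted p under 0.05, where 7.89% of all genes did. In delta against floxed 0 of 9 were called, where 0.00502% of all genes were, and 1 had an unadjusted p under 0.05 (Baz2b), where 6.42% of all genes did. On the log2 scale the 95% CI of the 9 genes reached from -0.29 to 0.28 in floxed against wild-type, from -0.24 to 0.30 in delta against wild-type and from -0.25 to 0.30 in delta against floxed. The lowest bound in delta against wild-type was that of Smarca1, whose readings lay near the bottom of the scale, so that its interval does not limit a change of its RNA.

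**Figure D2:**
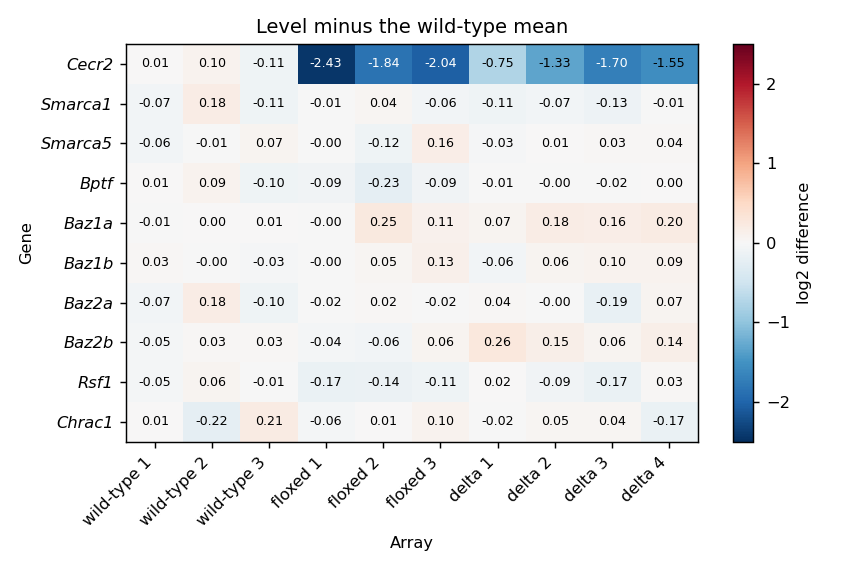
Level of each of the 10 genes (rows) in each of the 10 arrays (columns), as the log2 difference from that gene's wild-type mean, with the value printed in each cell and blue for lower and red for higher. The row of Cecr2 runs from -2.43 to -0.75 in floxed and delta arrays, while every other cell lies between -0.23 and 0.26.

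The median log2 change of the 9 genes was -0.0051 in floxed against wild-type, beside -0.0237 for all genes, and -0.0068 in delta against wild-type, beside -0.0137 for all genes. Over the 10 arrays, levels of the 9 genes spanned between 0.19 and 0.44 from lowest to highest, beside a median span of 0.35 over all genes. Cecr2 spanned 2.53, more than 99.76% of genes. It was chosen for its falls over these same arrays, so a wide span follows from that choice.

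The motors were measured first. Smarca5, which encodes the ATPase SNF2H of most ISWI complexes, read 10.08, 10.14 and 10.22 in wild-type, 10.14, 10.03 and 10.31 in floxed and 10.12, 10.15, 10.18 and 10.18 in delta arrays. All 3 groups overlapped, and the change was 0.02 (95% CI -0.15 to 0.18, adjusted p = 0.957) in floxed and 0.01 (95% CI -0.14 to 0.17, adjusted p = 0.986) in delta against wild-type. A further 3 probe sets name Smarca5 together with pseudogene symbols and were not used. Smarca1, the X-linked gene of the ATPase SNF2L, read 4.21 to 4.52 over the 10 arrays. Probe sets of the Y-linked genes named above, in the 6 arrays of female pattern, read 3.71 to 5.62. Each probe set has a background of its own, so these readings show only where absent transcripts can lie on this array, and a fall of Smarca1 from such a level may not be visible. Its change was -0.01 (95% CI -0.19 to 0.16) in floxed and -0.08 (95% CI -0.24 to 0.08) in delta against wild-type.

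The sequences before the start sites of this pair are shown because they belong to the alternative motors of the family and differ in CpG content. RefSeq windows (GRCm38.p6) were at hand for 6 of the 10 genes: Baz1b, Baz2a, Baz2b, Bptf, Smarca1 and Smarca5. Each window below holds the 250 bases before the start, 5′ to 3′, with every CpG dinucleotide in capitals. The Smarca5 window (chr8:80739460-80739709, minus strand) holds 29 CpG and the Smarca1 window (chrX:47892614-47892863, minus strand) holds 6. Over all 32851 windows of this length the median is 6, with quartiles of 2 and 16.
Smarca5: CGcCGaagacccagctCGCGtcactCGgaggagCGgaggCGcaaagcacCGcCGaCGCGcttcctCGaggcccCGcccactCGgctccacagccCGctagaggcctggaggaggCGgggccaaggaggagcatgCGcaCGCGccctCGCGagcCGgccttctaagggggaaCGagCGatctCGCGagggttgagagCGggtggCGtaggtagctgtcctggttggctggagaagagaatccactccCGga
Smarca1: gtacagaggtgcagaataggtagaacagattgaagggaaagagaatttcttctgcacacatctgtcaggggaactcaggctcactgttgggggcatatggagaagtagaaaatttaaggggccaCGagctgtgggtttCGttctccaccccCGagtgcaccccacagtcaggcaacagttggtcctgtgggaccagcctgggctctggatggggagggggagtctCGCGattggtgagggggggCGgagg
Bptf and Baz1b had 34 and 20 CpG in their windows, Baz2a had 20 and Baz2b had 4.

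Bptf encodes the large subunit of NURF, which carries a bromodomain and a finger that reads methylated histone H3. Its brighter probe set (10392318) read 10.79, 10.87 and 10.67 in wild-type, 10.69, 10.55 and 10.69 in floxed and 10.77, 10.77, 10.76 and 10.78 in delta arrays. Delta arrays lay above all floxed arrays by a narrow margin, while floxed and wild-type arrays overlapped. Floxed differed from wild-type by -0.14 (SE 0.07, adjusted p = 0.436), delta from wild-type by -0.0068 (SE 0.06, adjusted p = 0.990) and delta from floxed by 0.13 (SE 0.06, adjusted p = 0.795). A second Bptf probe set (10392300) gave -0.14, -0.04 and 0.11 in the same order, so both readings of the gene had the same sign in each comparison. With this second probe set all floxed arrays (10.63 to 10.66) lay below all wild-type arrays (10.72 to 10.87), with an unadjusted p of 0.0347 and an adjusted p of 0.340 in a limma fit over every probe set. The group means of Bptf stood in the same order as those of Cecr2, lowest in floxed and highest in wild-type. Of the 9 ISWI genes only Bptf and Rsf1 had this order, and Smarca5 and Baz1b had its reverse. The share of all genes with either order was not counted, so this is no result about the 9 genes.

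BAZ1A, also called ACF1, pairs with SNF2H in the spacing complexes ACF and CHRAC. Baz1a read 10.97, 10.98 and 10.99 in wild-type, 10.98, 11.23 and 11.09 in floxed and 11.05, 11.16, 11.14 and 11.18 in delta arrays. All 4 delta arrays lay above the wild-type arrays, whose own spread was very small (SD 0.01, n = 3), and floxed 1 lay within the wild-type range. The change was 0.15 (95% CI 0.01 to 0.30, adjusted p = 0.608) in delta and 0.12 (95% CI -0.04 to 0.28, adjusted p = 0.516) in floxed against wild-type. Chrac1, a small histone-fold subunit of CHRAC, ranged from 8.43 to 8.87 within the wild-type group, a range that held all floxed and delta arrays. Its changes were 0.02 and -0.02 in floxed and delta against wild-type (adjusted p = 0.965 and 0.983).

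BAZ2B is a bromodomain protein related to the NoRC subunit BAZ2A. Baz2b read 10.68, 10.76 and 10.76 in wild-type, 10.69, 10.67 and 10.80 in floxed and 10.99, 10.88, 10.79 and 10.87 in delta arrays. Delta arrays lay above all wild-type arrays, and delta 3 lay just below the highest floxed array. Baz2b differed by 0.15 (95% CI 0.01 to 0.29, adjusted p = 0.586) in delta against wild-type, by 0.17 (95% CI 0.03 to 0.30, adjusted p = 0.736) in delta against floxed and by -0.01 (adjusted p = 0.957) in floxed against wild-type. Its window before the start site is shown because it holds the motif TTCNNNGAA, the core that BCL6, the product of the transgene, shares with STAT factors. This motif reads the same on both strands and was the only one searched. It occurs in 1 of the 6 windows of these genes and in 7.02% of all 32851 windows, so that its presence is a description of the letters and not of binding. The window (chr2:60125741-60125990, minus strand) has the motif in capitals.
Baz2b: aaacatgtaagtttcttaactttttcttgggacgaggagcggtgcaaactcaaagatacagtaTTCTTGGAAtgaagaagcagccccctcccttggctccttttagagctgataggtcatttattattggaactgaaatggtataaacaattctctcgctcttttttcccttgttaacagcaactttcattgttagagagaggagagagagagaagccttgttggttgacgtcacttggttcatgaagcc

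RSF1 pairs with SNF2H in the complex RSF, which assembles and spaces nucleosomes. Rsf1 read 9.36, 9.48 and 9.40 in wild-type, 9.24, 9.27 and 9.30 in floxed and 9.43, 9.32, 9.25 and 9.45 in delta arrays. All floxed arrays lay below all wild-type arrays, and the delta arrays overlapped both groups. The group means stood in the order of those of Cecr2, at 9.27 in floxed, 9.36 in delta and 9.41 in wild-type. The change was -0.14 (95% CI -0.29 to 0.01, adjusted p = 0.413) in floxed and -0.05 (adjusted p = 0.914) in delta against wild-type.

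Baz1b encodes WSTF, the partner of SNF2H in the complex WICH, and Baz2a encodes TIP5, the partner in the nucleolar complex NoRC that silences ribosomal DNA. Baz1b read 10.43 to 10.49 in wild-type, 10.46 to 10.59 in floxed and 10.40 to 10.56 in delta arrays, with changes of 0.06 and 0.05 against wild-type (adjusted p = 0.762 and 0.923). Baz2a read 10.51 to 10.79, 10.59 to 10.63 and 10.42 to 10.68 in the same order, with changes of -0.01 and -0.02 (adjusted p = 0.989 and 0.980). The groups overlapped for both genes.

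Sex pattern, which differs between floxed and wild-type, was also set beside these genes. Within arrays of female pattern, Baz1a in delta differed from wild-type by 0.18, Baz2b by 0.12 and Rsf1 by -0.07. Within arrays of male pattern, where delta is 1 array, delta 1 differed from the floxed mean by 0.27 for Baz2b, 0.16 for Rsf1, 0.13 for Bptf, -0.05 for Baz1a and -0.12 for Baz1b. As a covariate, sex pattern rests on delta 1 alone. With it, the changes in floxed against wild-type became 0.23 for Baz1a, 0.20 for Baz1b, -0.16 for Baz2b and -0.23 for Rsf1. With the mean of the T cell list as covariate Smarca5 was at -0.07 in that comparison (adjusted p = 0.828).

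Groups that did not overlap were thus found for 1 of 9 genes in floxed against wild-type (Rsf1, lower), where 16.7% of all genes had such groups. In delta against wild-type they were found for 2 of 9 (Baz1a and Baz2b, both higher), where 9.25% of all genes had them, and in delta against floxed for 1 of 9 (Bptf, higher), where 6.96% of all genes had them. These counts take the brighter probe set of Bptf.

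**Figure D3:**
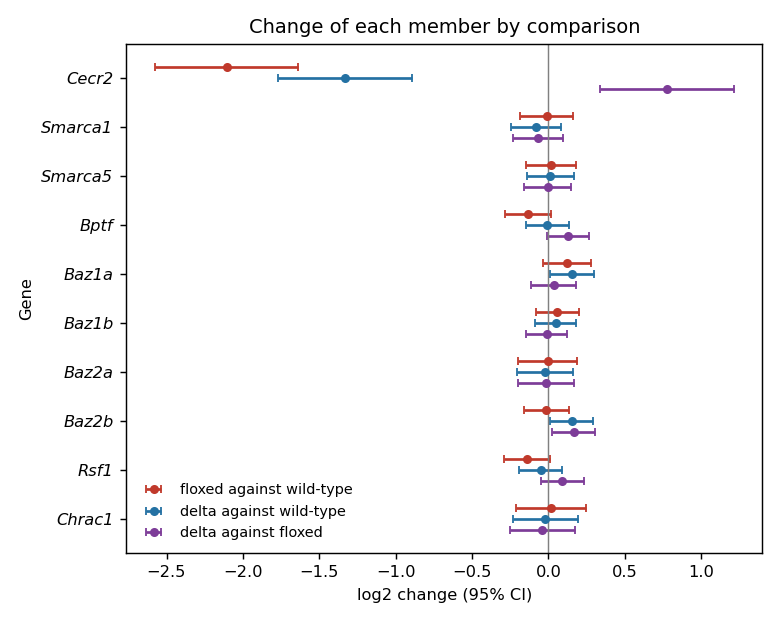
Change of each of the 10 genes (rows) on the log2 scale (horizontal axis) in the 3 comparisons, as points with 95% confidence intervals from the limma fit. The intervals of the 9 ISWI genes stay between -0.29 and 0.30, while Cecr2 lies at -2.11, -1.33 and 0.77. Intervals of Cecr2 do not allow for its choice on these arrays.

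Further partners of the same complexes did not pass the threshold either. This list held Pole3 (the histone-fold partner of CHRAC1), Rbbp4, Rbbp7, Hmgxb4 and Bap18 (listed as 0610010K14Rik) of NURF, Luzp1 of CERF, and Hells, a related helicase gene. Of its 7 genes, 0 rose and 0 fell in each comparison by limma, with 0 and 1 at an unadjusted p under 0.05 for floxed and delta against wild-type and 0 between delta and floxed. Over all genes 12.78%, 7.89% and 6.42% had such a p, in the same order. The median change was -0.05 in floxed and -0.07 in delta against wild-type, beside -0.0237 and -0.0137 for all genes. All 7 estimates were below 0 in delta against wild-type, but the share of all genes below 0 was not counted. Hells had the smallest p in both of these comparisons, at -0.18 (adjusted p = 0.557) and -0.26 (adjusted p = 0.596), and Bap18 in delta against floxed, at -0.08 (adjusted p = 0.869).

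Lists of other remodelling families held 1 call each in the CHD and NuRD list and in the list of other bromodomain genes. They were not tested against the ISWI genes. In the SWI/SNF list, 0 of 25 genes passed in any comparison by limma, with 4, 2 and 0 at an unadjusted p under 0.05 in the order above and medians of -0.06, -0.04 and 0.04. Among all genes, 12.78%, 7.89% and 6.42% had such a p, and 0.552%, 0.0752% and 0.00502% were called. The medians of all genes were -0.0237, -0.0137 and 0.0045, and these values stand beside every list named here. In floxed against wild-type 20 of the 25 SWI/SNF estimates were below 0, and they ran from -0.22 (Phf10) to 0.30 (Smarca2). The share of all genes below 0 was not counted, so this is no result about the list. Smarca2, which encodes the SWI/SNF ATPase BRM, was at 0.30 (SE 0.07, adjusted p = 0.0751) in floxed and 0.25 (adjusted p = 0.266) in delta against wild-type, and Phf10 was at 0.13 in delta against floxed (adjusted p = 0.814). Smarca2 passed in floxed with arrays centred on their medians (adjusted p = 0.0360) and with a trended, robust variance prior (adjusted p = 0.0489). In the INO80 and SRCAP list, 0 of 17 measured genes passed by limma, with 1, 0 and 0 at an unadjusted p under 0.05 and medians of -0.0021, -0.0029 and 0.0028. Ino80c was at 0.25 (adjusted p = 0.200) in floxed against wild-type and -0.16 (adjusted p = 0.777) in delta against floxed, and Mcrs1 was at -0.10 (adjusted p = 0.771) in delta against wild-type.

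In the CHD and NuRD list, 1 of 18 genes rose in floxed against wild-type, 0 fell and 17 did not pass. The median was 0.0006, beside -0.0237 for all genes, of which 0.552% were called. That gene was Hdac1, a histone deacetylase of NuRD and other repressor complexes. Wild-type arrays averaged 10.66 ± 0.07 (SD, n = 3), floxed arrays 11.10 ± 0.06 (SD, n = 3) and delta arrays 10.98 ± 0.07 (SD, n = 4), a rise of 0.44 in floxed (SE 0.07, adjusted p = 0.0179) and a difference of 0.32 in delta (adjusted p = 0.144). In delta against floxed Hdac1 was at -0.12 (adjusted p = 0.814). Among 26 measured genes with other bromodomains, the median in floxed against wild-type was -0.09, beside -0.0237 for all genes. Of these 26, 1 fell, 0 rose and 25 did not pass. That gene was Brwd1, a bromodomain and WD-repeat protein gene that acts in B cell development. Wild-type arrays averaged 10.48 ± 0.10 (SD, n = 3), floxed arrays 9.945 ± 0.12 (SD, n = 3) and delta arrays 10.17 ± 0.07 (SD, n = 4). Brwd1 fell by 0.54 on the log2 scale in floxed (SE 0.08, adjusted p = 0.0171), and Brwd1 was at -0.31 in delta against wild-type (adjusted p = 0.213) and 0.22 in delta against floxed (adjusted p = 0.717). The estimate farthest above 0 in this list was that of Sp140, an immune nuclear body gene, at 0.70 (SE 0.19, adjusted p = 0.122), named here after its value was seen. In delta against either group, 0 genes of the CHD and NuRD list and 0 of the other bromodomain list passed by limma, with 1 and 1 at an unadjusted p under 0.05 against wild-type and 0 and 2 against floxed. Of all genes, 7.89% had such a p and 0.0752% were called in delta against wild-type, with 6.42% and 0.00502% in delta against floxed. Both calls ended with sex pattern as a covariate (Hdac1 0.45, adjusted p = 0.484, and Brwd1 -0.49, adjusted p = 0.533) and with the mean of the T cell list as covariate (Hdac1 0.51, adjusted p = 0.0992, and Brwd1 -0.41, adjusted p = 0.175). They also ended without wild-type replicates 1 or 2 or floxed replicate 3 (Hdac1 adjusted p = 0.0554, 0.0938 and 0.0697, Brwd1 adjusted p = 0.0673, 0.0863 and 0.0676), and without floxed replicate 2 for Hdac1 (adjusted p = 0.0750) and floxed replicate 1 for Brwd1 (adjusted p = 0.0546).

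The position of Cecr2 was examined through the 5 nearest measured protein-coding genes on each side in RefSeq order. On one side these were Hdhd5, Tmem121b, Il17ra, Kdm5a and Ccdc77, from near to far, and on the other Slc25a18, Atp6v1e1, Bcl2l13, Bid and Mical3. None passed the adjusted threshold in any comparison. The next gene, Slc25a18, which encodes a mitochondrial glutamate carrier, had means of 7.52 ± 0.15 (SD, n = 3) for wild-type arrays, 7.09 ± 0.15 (SD, n = 3) for floxed arrays and 7.32 ± 0.21 (SD, n = 4) for delta arrays. Its order of group means was that of Cecr2, with -0.43 (SE 0.13, adjusted p = 0.170) in floxed and -0.20 (adjusted p = 0.759) in delta against wild-type. Tmem121b and Kdm5a had this order of group means too, while Hdhd5, Atp6v1e1, Bid and Mical3 had its reverse. How many of all genes had either order was not counted, so this is no result about the neighbours. Hdhd5 on the other side went upward, by 0.16 (adjusted p = 0.305) in floxed and 0.06 (adjusted p = 0.876) in delta. Mical3, which encodes an actin-oxidising enzyme, was at 0.78 (SE 0.18, adjusted p = 0.0948) in floxed and 0.50 (adjusted p = 0.460) in delta.
The remaining 7 neighbours lay between -0.17 (Tmem121b) and 0.19 (Bid, a pro-apoptotic BH3-only gene) in floxed and between -0.09 (Bcl2l13) and 0.06 (Atp6v1e1) in delta. Kdm5a, a histone demethylase gene, was at -0.09 and -0.07, Il17ra, a cytokine receptor gene, at -0.02 and 0.04, and Ccdc77 at 0.0044 and -0.0019.

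**Figure D4:**
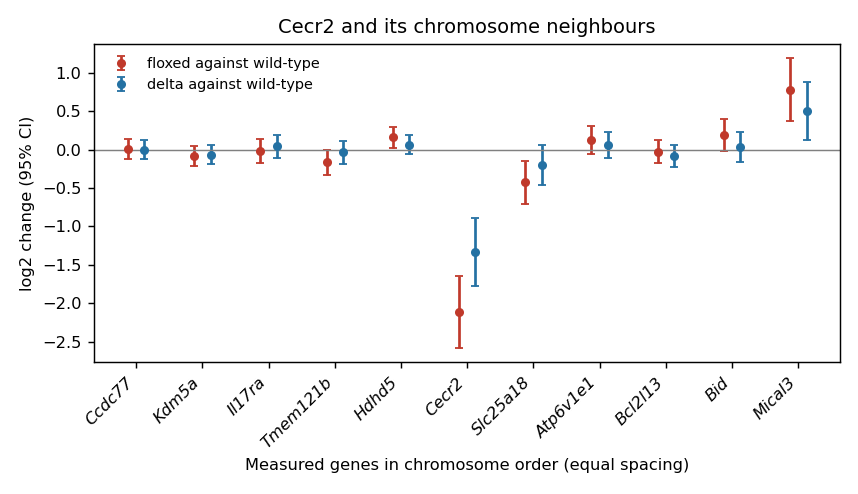
Change against wild-type on the log2 scale (vertical axis, points with 95% confidence intervals) in floxed and in delta for Cecr2 and its 5 nearest measured genes on each side, set at equal spacing in chromosome order. Cecr2 lies at -2.11 and -1.33, and the 10 neighbours lie between -0.43 and 0.78. Intervals of Cecr2 do not allow for its choice on these arrays.

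Genes with a pattern like that of Cecr2 were ranked by the root mean square difference between log2 levels over the 10 arrays, after subtracting each gene's own wild-type mean. Since all were set against the same arrays on which Cecr2 was selected, these are descriptions with no test. The closest gene was Cd93, a surface marker of immature B cells, with a difference of 0.47, followed by Dhrs3, a retinaldehyde reductase gene, with 0.60. Lynx1, a modulator of acetylcholine receptors, Ifi213, an interferon-inducible gene, and Nedd4, a ubiquitin ligase gene, had 0.65, 0.66 and 0.69. In floxed and delta against wild-type, in that order, Cd93 differed by -1.58 and -1.30, Dhrs3 by -1.89 and -1.07, Lynx1 by -1.52 and -0.94, Ifi213 by -1.51 and -1.02 and Nedd4 by -1.03 and -0.87. These genes parted from Cecr2 in single arrays. In delta 1, where Cecr2 was highest within its group, Dhrs3 was lowest within its group, at 7.09 against 7.91 to 8.44 in the other delta arrays.

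**Figure D5:**
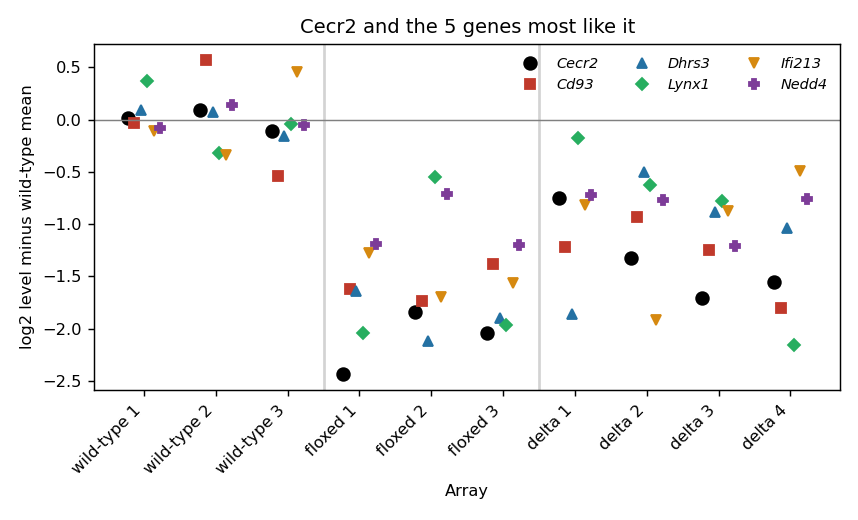
Log2 level minus the gene's wild-type mean (vertical axis) in each of the 10 arrays for Cecr2 and the 5 genes nearest to it by root mean square difference. All 6 genes lie below their wild-type mean in every floxed and delta array, and they order the 4 delta arrays differently.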

How the data were processed

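Expression was measured on 10 arrays, with 3 wild-type, 3 floxed and 4 delta samples. The authors deposited RMA intensity for each probe set, per the submitters' processing notes, and the values lie on a linear scale (4.46 to 26808), so log2 was taken. The RMA software, its version and the genome build were not given in the sources used here. Of 34760 probe sets, 21640 carried 1 gene symbol in the platform annotation, 1321 several and 11799 none. Only probe sets with 1 symbol were used, and where a gene had several (954 genes) the brightest over all arrays stood for it, which left 19937 genes. Symbols were compared by Entrez ID with a RefSeq gene table (GRCm38.p6), which changed 0 of them and gave the order of neighbours.

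Differences were fitted in R 4.3.3 with limma 3.58.1 (lmFit with a mean per group over all 10 arrays, eBayes; 11.3 degrees of freedom in total), as two-sided tests. P-values were adjusted by Benjamini-Hochberg over all 19937 genes, at a threshold of 0.05. The fit was tested on simulated data. Array data have no counting error, and the number of arrays limits the precision. The genes and lists were chosen with earlier results of these data known. Named genes were all 10 genes of the set, from each list those past the threshold (up to 4 for a comparison) or else the one with the smallest p, the 5 measured neighbours of Cecr2 on each side, the 5 genes most like Cecr2 without predicted genes, and the 3 genes behind Cecr2 by size of fall. The genes ahead of Cecr2, Bcl6, Sp140, the sex pattern genes and the marker genes lie outside that rule, chosen with their values already seen. Alternatives were another normalization or centring, leaving out dim genes (mean log2 under 6), all or averaged probe sets, a trended and robust prior, array weights, fits of 2 groups, a replicate block, covariates for sex pattern and T cell mean, and the omission of single arrays.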

Additional observations from a re-analysis of the deposited data

Results flagged for a closer look

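In 38 genes named here, the 4 delta arrays were searched for an array far from the other 3, and 5 genes had one, where chance alone flags about 1 in 20. None of them is among the 10 genes followed. Xist was at 6.20 and Zfp979 at 3.64 in delta 1, the delta array of male pattern. Nedd4 was at 9.07 in delta 3, below the others, Hdhd5, next to Cecr2, was at 8.97 in delta 4, below the others, and Ino80c was at 9.60 in delta 2.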

How the results depend on the processing

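None of the 9 ISWI genes passed the threshold under any of the 21 alternatives in any comparison, and Cecr2 passed in delta against floxed under none. Of 564 values of the 9 genes under alternatives, 555 moved by less than the spread between replicates, 9 by more (all with a covariate), and 47 changed sign without being called. Smarca1 was left out by the filter on dim genes. Cecr2 kept its sign in every alternative and comparison. Leaving out single arrays gave -2.24 to -1.94 in floxed and -1.53 to -1.21 in delta against wild-type, and 0.58 to 0.90 in delta against floxed. With sex pattern as a covariate Cecr2 was -2.89 in floxed against wild-type and 1.36 in delta against floxed, and delta against floxed was 0.45 with the mean of the T cell list as covariate. That correction for sex rests on delta 1 alone.

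The count of all genes called in floxed against wild-type, 110, became 178 with arrays centred on their medians, 169 without dim genes, 208 with array weights, 193 with only the 2 groups, 2 with sex pattern and 9 with the T cell list as covariate. Of the 110, 78 were higher and 32 lower, and with centring 148 and 30. It was 24 and 18 without wild-type replicates 1 and 2, 46 without floxed replicate 1, 37 without floxed replicate 2, 25 without floxed replicate 3, 67 without delta replicate 3 and 240 without delta replicate 4. The count in delta against wild-type, 15 (6 higher and 9 lower), became 3 with centring (2 higher and 1 lower), 9 with the trended, robust prior, 3 with sex pattern, and 0 with every probe set in the fit or only the 2 groups (limma; 1744 at an unadjusted p under 0.05 in the latter). It ranged from 0 to 23 when single arrays were left out (0 without wild-type 1, wild-type 2, floxed 1, floxed 3 or delta 3, 3 without delta 1, 9 without floxed 2 and 23 without wild-type 3, with 1240 to 1756 at an unadjusted p under 0.05 over the 10 fits). The count in delta against floxed, 1, became 3 with the trended, robust prior and 2 with only the 2 groups, and ranged from 1 to 10 without single arrays (10 without delta 1, 5 without floxed 2, 4 without delta 4, and 2 without wild-type 1, floxed 1 or floxed 3). The cause of these shifts was not tested. A replicate block gave 188, 6 and 2 calls in the 3 comparisons and Cecr2 differences of -2.11, -1.26 and 0.85. Samples with the same number deviated together by correlations of only -0.08 to 0.12. Such values cannot show whether the numbers pair the samples, which the labels do not state.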
